A study of Mus musculus with 20 samples.

Results

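The genes described here are 8 amino acid transporter genes and Asns, which encodes asparagine synthetase. The transporters are Slc7a5, Slc3a2, Slc7a3, Slc7a11, Slc38a2, Slc38a5, Slc1a4 and Slc1a5. The 9 genes were taken by symbol from both tables of the series, where they made up 9 of 22102 entries in the time course table and 9 of 42458 entries in the discovery table. They were selected on their measured levels in these same libraries (the FPKM and TPM values and differences below), and which comparison guided the choice is not stated. Their levels and differences are therefore a description with no p-value of their own. How many of the 9 passed each fit across all genes is given for orientation, and values with an adjusted p are printed only for genes outside the 9.

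The series holds 20 RNA sequencing libraries of mouse cells. For the 12 time course libraries, E14 embryonic stem cells (strain 129/Ola) carried a lentiviral short hairpin RNA in pLKO.1 and were selected with puromycin. The 3 cultures carried a scrambled hairpin, hairpin A or hairpin B, and A and B target the long noncoding RNA Braveheart. Each culture gave 1 library on each of days 0, 3, 6 and 9 of differentiation towards heart muscle. All the time course cells thus carried a hairpin vector, controls included, and hairpins A and B were the only replicates of depletion. The labels describe differentiation both as embryoid bodies and by a directed route to cardiomyocytes, without saying which gave these libraries.

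The 8 discovery libraries came from wild-type E14 (129/Ola, 2 libraries) and wild-type v6.5 embryonic stem cells (129/svJae x C57BL/6, 2 libraries), called mESC here, and from 4 samples of Oct4-GFP cells of the 129/svJae x C57BL/6 strain. These 4 were embryonic fibroblasts (MEF, 1 library), the partially reprogrammed lines MCV6 and MCV8 (1 library each) and the induced pluripotent line miPS (1 library). The 3 lines derived from the fibroblasts carried retroviral Oct4, Sox2, c-myc and Klf4. Per the labels, mESC and miPS were grown on irradiated MEF that were removed by pre-plating, and MCV6 and MCV8 were grown without feeders. Nothing in the labels says that replicate libraries came from separate cultures, so the p-values below reflect the spread among deposited libraries, which may be technical.

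Amino acid transporters of the plasma membrane include exchangers of one amino acid for another and carriers that move it with sodium. The cell's supply of leucine, glutamine, arginine, cystine and serine depends on such transporters. Many of these genes are known targets of ATF4, the transcription factor whose translation rises when uncharged tRNA or other stress activates an eIF2 kinase. ATF4 binds CCAAT enhancer binding protein-ATF response elements, also called amino acid response elements, and Asns is the classic gene in which such an element was mapped. Mouse embryonic stem cells are known for their dependence on threonine and their use of glutamine.

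The RefSeq promoter table (GRCm38.p6, a build other than that of the expression files) held 6 of the 9 genes, and Slc7a3, Slc7a5 and Slc1a5 had no entry. The letters TGATGNAA, written for an amino acid response element and searched on both strands of the 250 bases before the start site, occurred in 2 of the 6, Asns and Slc7a11, and in 3.45% of 32851 promoters. The Asns and Slc7a11 sequences below are shown because they hold a match to TGATGNAA. Slc38a5 is shown as the gene with the widest range between cell lines. Bases after the start site and farther upstream were not searched. Capitals mark TGATGNAA on either strand in Asns and Slc7a11, and the palindrome CACGTG, an E-box, in Slc38a5. The stretches lie on the minus strand at chr6:7693212-7693241 (Asns), on the minus strand at chr3:50443615-50443703 (Slc7a11) and on the plus strand at chrX:8271281-8271380 (Slc38a5), and each is printed 5′ to 3′ along its gene.
Asns: ccagccacaTGATGAAActtcccgcacgcg
Slc7a11: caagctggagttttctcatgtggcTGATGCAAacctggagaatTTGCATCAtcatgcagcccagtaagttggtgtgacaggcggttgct
Slc38a5: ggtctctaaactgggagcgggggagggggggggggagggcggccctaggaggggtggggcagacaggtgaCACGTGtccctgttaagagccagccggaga

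The Asns match began 23 bases before the RefSeq start site, inside an annotated exon. Slc7a11 held a match on the gene's own strand 66 bases before the start site and another on the opposite strand 47 bases before it. CACGTG occurred in Slc38a5 among the 6 and in 6.02% of the 32851 promoters. The letters TGACNNNGC, written for an antioxidant response element, occurred in Asns and Slc38a2 and in 10.2% of promoters. A match is a run of letters and not a measured binding site.

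Depth and identity of the libraries were as follows. Discovery libraries held 7536503 to 23662593 expected reads, and steps between low values of the time course table implied that 3 reads on a transcript of 1 kb were worth 0.273 to 0.446 FPKM. Col1a1, the main fibroblast collagen, stood at 8103 TPM (a transcript's share of its library, corrected for length) in MEF and at 0.0711 to 87.2 TPM in the other 7 discovery libraries. Pou5f1 (Oct4) stood at 793 to 1223 TPM in mESC, 1152 TPM in miPS, and 6491 and 6911 TPM in MCV6 and MCV8, where reads from the retroviral Oct4 cannot be told apart from the cell's own. Nanog, which was not among the transduced genes, stood at 0.951 and 1.67 TPM in MCV6 and MCV8, 1.06 TPM in MEF and 231 to 339 TPM in mESC and miPS. Over 10 fibroblast markers the summed level was 250 to 306 TPM in mESC, 325 TPM in miPS, 125 and 76 TPM in MCV6 and MCV8 and 17820 TPM in MEF. Lum, a matrix proteoglycan, had under 1 read in the first v6.5 library and in MCV6, and Col1a1, Col3a1, Dcn, Lum and Pdgfrb did in MCV8. The part of remaining feeder cells in the mESC and miPS values was not tested.

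With hairpin B, the libraries of days 6 and 9 resembled earlier days of the other cultures. Across genes, the hairpin B day 9 library correlated with the day 0 libraries of the other cultures at r = 0.951 to 0.953 and with their day 9 libraries at 0.865 to 0.877. The hairpin B day 6 library correlated with their day 3 libraries at 0.947 to 0.953 and with their day 6 libraries at 0.926 to 0.931. The summed level of 10 pluripotency markers went from 6450 to 731 FPKM (fragments per kilobase of transcript, scaled to library size) between days 0 and 9 in the scrambled culture and from 7801 to 865 FPKM with hairpin A, whereas with hairpin B it was 5812, 3177, 5020 and 7786 FPKM on days 0, 3, 6 and 9. The 10 cardiomyocyte markers summed to 502 FPKM in the scrambled culture on day 9, 89.2 FPKM with hairpin A and 20.1 FPKM with hairpin B. The part of these cell mixtures in the levels of the 9 genes was not tested, and in bulk RNA fewer cells of a type and less RNA per cell cannot be told apart. The day differences below are given with and without hairpin B.

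Slc7a5 and Slc3a2 encode the light and heavy chain of the LAT1-4F2hc exchanger, which imports leucine and other large neutral amino acids against glutamine. Slc7a5 (mm9, chr8:124405045-124431586) stood at 69.4, 62.5, 27.9 and 20.5 FPKM on days 0, 3, 6 and 9 in the scrambled culture. With hairpin A the levels were 63.4, 56.2, 27.7 and 21.9 FPKM, and with hairpin B 74.4, 76.7, 52.9 and 58.5 FPKM. Scrambled and hairpin A ended at 29.5% and 34.6% of their day 0 level, and hairpin B at 78.6%. The levels of day 3 overlapped with those of day 0, and hairpin B was the highest culture on each day.

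Slc3a2, the heavy chain that also carries xCT and other light chains to the membrane (mm9, chr19:8781371-8797859), stood at 112, 82.7, 47.3 and 55.7 FPKM in the scrambled culture. Its levels with hairpin A were 104, 83.9, 51.8 and 44.1 FPKM, and with hairpin B 135, 90.5, 69.2 and 75.9 FPKM. In each culture the 3 later days lay below day 0, and day 9 was at 42.5% to 56.1% of it. The ratio of Slc3a2 to Slc7a5 in FPKM was 1.62 to 1.82 on day 0 and 1.3 to 2.72 on day 9, with hairpin B the lowest on day 9.

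Slc7a3 (CAT-3; mm9, chrX:98274559-98280691), a carrier of arginine and lysine, was lower at each step of the course than at the one before in each culture. Its levels were 86.2, 80.8, 43.0 and 22.1 FPKM in the scrambled culture, 71.8, 57.2, 45.7 and 26.7 FPKM with hairpin A, and 102, 91.1, 77.7 and 65.2 FPKM with hairpin B. On day 9 the scrambled culture was 3.91-fold below its day 0, hairpin A 2.69-fold and hairpin B 1.56-fold. Slc7a3 and Slc7a5 varied most alike among the 9 genes, with r = 0.95 of log2(FPKM + 1) over the 12 libraries, which share cultures and days.

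Slc7a11 (xCT; mm9, chr3:50168857-50247535), the cystine-glutamate exchanger that feeds glutathione synthesis, was above its day 0 level in most later libraries. It stood at 12.4, 16.6, 18.0 and 21.3 FPKM in the scrambled culture, 13.6, 17.5, 17.3 and 16.5 FPKM with hairpin A, and 13.1, 16.9, 16.0 and 11.7 FPKM with hairpin B. The day 3 and day 6 libraries did not overlap with those of day 0, and the hairpin B library of day 9 lay below all 3 libraries of day 0. Its course ran against that of Slc1a5 (r = -0.82) and of Slc7a5 (r = -0.66).

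Slc38a2 (SNAT2; mm9, chr15:96517822-96530129), a sodium-coupled carrier of small neutral amino acids that cells are known to raise on amino acid starvation, was the most abundant transporter of the 8 in each time course library. It stood at 188, 174, 92.0 and 119 FPKM in the scrambled culture, 145, 144, 96.8 and 123 FPKM with hairpin A, and 171, 159, 118 and 121 FPKM with hairpin B. Day 6 was the lowest day in each culture, at 48.9% to 69.1% of day 0, and the 3 cultures lay within 119 to 123 FPKM on day 9.

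Slc38a5 (SNAT5; mm9, chrX:7848517-7857302), a related carrier of glutamine, glycine and serine, was the least abundant of the 9 in every time course library. Its levels were 0.340, 0.663, 1.55 and 0.813 FPKM in the scrambled culture, 0.425, 1.11, 1.86 and 0.847 FPKM with hairpin A, and 0.425, 0.519, 0.559 and 0.476 FPKM with hairpin B. The smallest steps of the table put these values at 7, 14, 27 and 15 reads, 7, 22, 28 and 12 reads, and 9, 11, 12 and 11 reads. On day 6 the 95% Poisson intervals, which cover counting error only, were 1.02 to 2.25 FPKM in the scrambled culture, 1.23 to 2.68 FPKM with hairpin A and 0.289 to 0.976 FPKM with hairpin B. The day 6 peak of the scrambled and hairpin A cultures, 4.55-fold and 4.37-fold above day 0, was not seen with hairpin B, at 1.31-fold. Beside it, the summed level of 10 blood markers was 631 FPKM in the scrambled culture, 134 FPKM with hairpin A and 5.21 FPKM with hairpin B on day 6, and 2.45 to 2.7 FPKM on day 0. The part of blood cells in the Slc38a5 level was not tested.

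Slc1a4 (ASCT1; mm9, chr11:20202182-20232716), an exchanger of alanine, serine and cysteine, stood at 22.0, 13.3, 10.6 and 12.5 FPKM in the scrambled culture, 21.4, 14.1, 10.1 and 13.1 FPKM with hairpin A, and 15.3, 12.9, 8.55 and 12.6 FPKM with hairpin B. Day 6 was the lowest day in each of the 3 cultures. Slc1a5 (ASCT2; mm9, chr7:17366694-17383623), the related glutamine exchanger, stood at 33.4, 21.3, 12.2 and 9.71 FPKM in the scrambled culture, 32.2, 22.0, 9.51 and 9.95 FPKM with hairpin A, and 28.1, 21.2, 19.4 and 32.6 FPKM with hairpin B. The cultures were close on day 3 and far apart on day 9, where hairpin B was 3.36-fold above the scrambled culture and hairpin A was 1.02-fold of it.

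Asns (mm9, chr6:7625170-7643182), which makes asparagine from aspartate and glutamine, had a course unlike those of the transporters, with its low point on day 3. It stood at 205, 74.4, 91.0 and 139 FPKM in the scrambled culture, 160, 51.3, 75.3 and 144 FPKM with hairpin A, and 132, 76.4, 142 and 181 FPKM with hairpin B. The day 3 libraries lay 2.76-fold, 3.11-fold and 1.72-fold below day 0 of their own culture, and day 9 lay at 67.5%, 90.2% and 137% of it. Its correlations with the 8 transporters ran from -0.61 (Slc38a5) to 0.36 (Slc1a4) over the 12 libraries. Slc7a11, the other of the 6 genes searched that had TGATGNAA before the start site, was higher on day 3 than on day 0 in the 3 cultures. The part of these letters in either course was not tested.

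**Figure D1:**
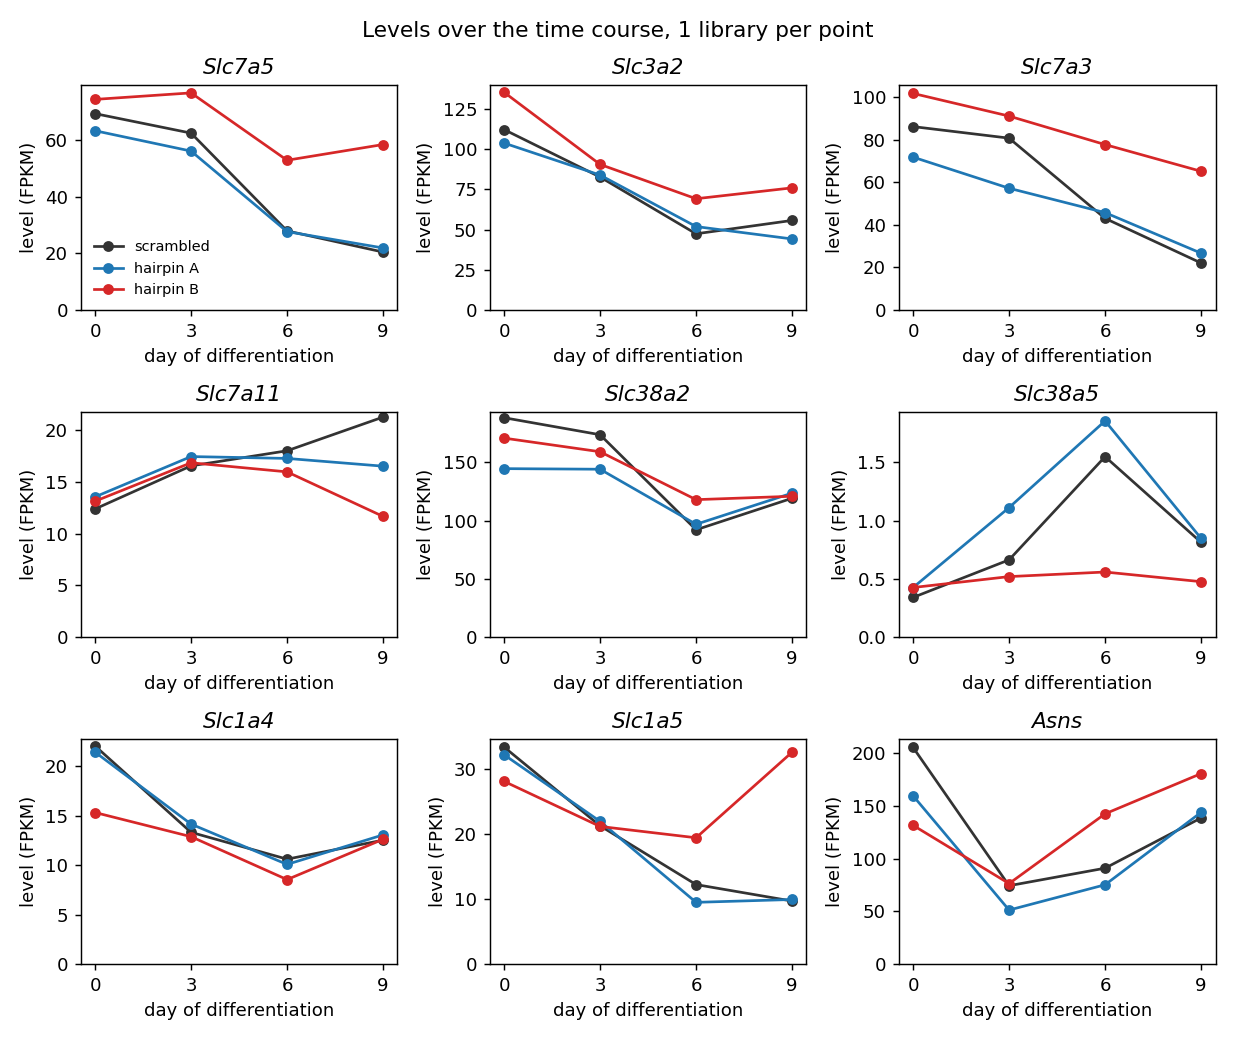
Level in FPKM (vertical axis, from 0) against day of differentiation (horizontal axis) for each of the 9 genes. Each point is 1 library, with the scrambled culture in black, hairpin A in blue and hairpin B in red, and on day 9 hairpin B lies above both other cultures for Slc7a5, Slc3a2, Slc7a3, Slc1a5 and Asns.

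Mean differences from day 0 were computed with limma on log2(FPKM + 1), a scale that makes the changes of low genes look smaller, with hairpin or scrambled as a second term. For Asns it was -1.28 ± 0.26 (SE) on day 3, -0.71 ± 0.26 on day 6 and -0.09 ± 0.26 on day 9, and without the hairpin B culture -1.54, -1.12 and -0.36. For Slc1a5 it was -1.18 ± 0.40 on day 6 and -1.02 ± 0.40 on day 9, and without hairpin B -1.52 and -1.64. Slc7a3 and Slc7a5 differed by -1.32 ± 0.37 and -1.18 ± 0.36 on day 9, and by -1.66 and -1.60 without hairpin B. These 4 genes moved the most when the hairpin B culture was left out.

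Slc3a2 differed by -1.06 ± 0.20 on day 6 and -1.01 ± 0.20 on day 9, and without hairpin B by -1.11 on both days. Slc1a4 differed by -0.93 ± 0.15 on day 6, and Slc38a2 by -0.71 ± 0.13. The 2 genes above their day 0 level were Slc38a5, by 0.69 ± 0.24 on day 6, and Slc7a11, by 0.37 ± 0.17, and without hairpin B they differed by 0.97 and 0.42. The 7 genes below day 0 on day 6 and the 2 above it kept their sign without the hairpin B culture.

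The number of the 9 genes past an adjusted p of 0.05 is given for orientation only, since the choice of the genes used these values. On day 3 Asns passed, downward, where 2.78% of the 14108 genes tested did so (3.26% passed upward and 6.04% in either direction), and its call was lost when the scrambled library of day 0 or day 3, the hairpin A library of day 0 or day 3, or the hairpin B library of day 3 was left out. On day 6 Slc1a4, Slc38a2 and Slc3a2 passed downward, against 3.71% of genes (4.97% upward, 8.68% in either direction). On day 9 the same 3 and Slc7a3 passed downward, against 6.22% of genes (10.3% upward, 16.6% in either direction). Without the hairpin B libraries of days 6 and 9, a setting chosen after seeing the data, 5 genes passed on day 3, 9 on day 6 and 8 on day 9, where 27.2%, 46.3% and 60.1% of all genes passed. With the culture as a block, 2, 5 and 5 passed on days 3, 6 and 9, against 9.64%, 15.6% and 29.9% of all genes. Leaving out single libraries took the day 6 count to 0 (scrambled day 0 or day 6) or 1 (hairpin A day 6), and the day 9 count to 0 (scrambled or hairpin A, day 0 or day 9) or 1 (scrambled or hairpin A, day 3 or day 6, or hairpin B day 3), and the day 9 count was 2 without the hairpin B library of day 0 and 7 without that of day 9. The day 6 count was 5 and 6 without the hairpin B libraries of days 6 and 9, and the day 3 count was 2 without those of days 0 and 9. The number of all genes that passed moved widely too when 1 library was left out. It was 167 to 2231 on day 3, 93 to 4169 on day 6 and 85 to 7479 on day 9.

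Counted without a test, 4 of the 9 lay lower on day 3 than on day 0 in all 3 cultures with no overlap (Asns, Slc1a4, Slc1a5 and Slc3a2), against 19.7% of genes. On day 6 the count was 5 (Slc1a4, Slc1a5, Slc38a2, Slc3a2 and Slc7a5), against 15.6% of genes. On day 9 it was 5 (Slc1a4, Slc38a2, Slc3a2, Slc7a3 and Slc7a5), against 11.5%. Slc38a5 and Slc7a11 lay above day 0 with no overlap on days 3 and 6, against 22.2% and 23.2% of genes, and on day 9 only Slc38a5 did so among the 9, against 19.5%. For Slc38a5 this rested on 7 to 9 reads a library on day 0 and, with hairpin B, on 11, 12 and 11 reads later. Its 95% Poisson intervals with hairpin B overlapped between day 0 (0.195 to 0.808 FPKM) and day 3 (0.259 to 0.929 FPKM). It reached 1 FPKM, the limit for testing, only in the scrambled library of day 6 and the hairpin A libraries of days 3 and 6.

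**Figure D2:**
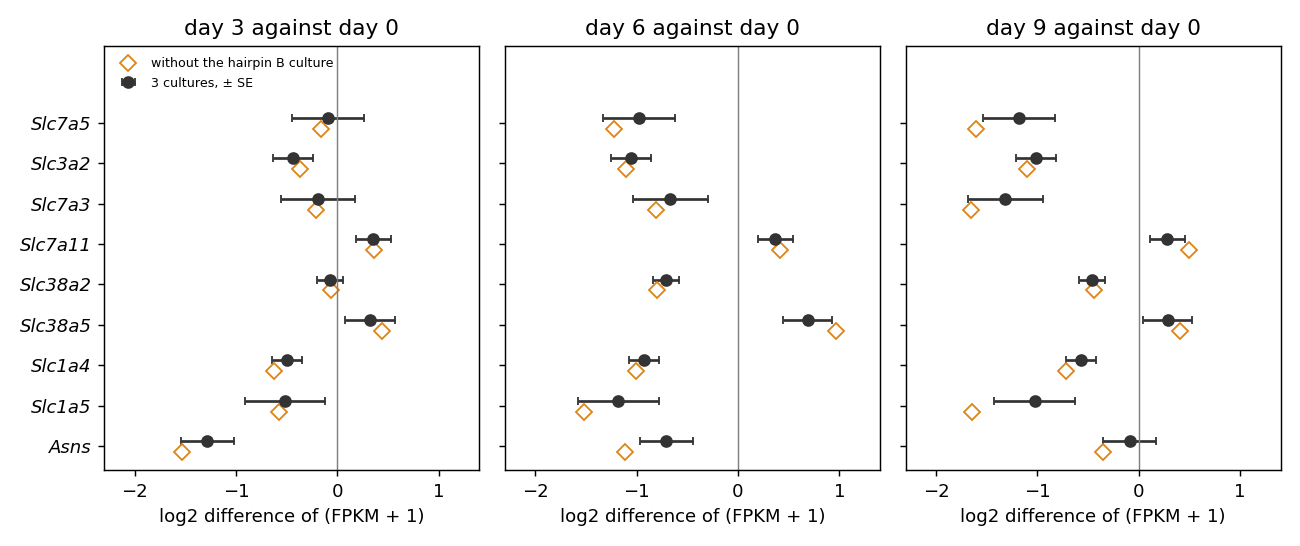
Difference from day 0 in log2(FPKM + 1) (horizontal axis) for each of the 9 genes (vertical axis), with days 3, 6 and 9 in separate panels. Black points with bars are the mean over 3 cultures ± SE, open diamonds are the values without the hairpin B culture, and Asns lies farthest from 0 on day 3 while Slc7a5, Slc7a3 and Slc1a5 move farther below 0 on day 9 without hairpin B.

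The comparison of hairpins with the scrambled culture asks whether depletion of Braveheart altered these genes. On day 9 the mean of hairpins A and B differed from the scrambled library by 0.89 ± 0.59 (SE) for Slc7a3, 0.84 ± 0.67 for Slc1a5, 0.78 ± 0.61 for Slc7a5 and -0.58 ± 0.25 for Slc7a11 on the log2(FPKM + 1) scale. The hairpins did not share these differences in size. Slc7a3 was 1.21-fold of the scrambled level with hairpin A and 2.96-fold with hairpin B, and Slc7a5 was 1.07-fold and 2.86-fold of it. Slc7a11 was 0.777-fold and 0.548-fold of it. On day 0 hairpins A and B stood at 0.777-fold and 0.641-fold of the scrambled level for Asns and at 0.634-fold and 0.988-fold for Atf4.

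None of the 9 genes passed the limma test of depletion on any of the 4 days, and none of the 9 had an unadjusted p under 0.05. Over all genes 0.0213%, 0.0284%, 0.0425% and 0.0354% passed on days 0, 3, 6 and 9, and 0.00709% passed upward on days 0 and 9. Without loci under 300 bp 0 genes passed on any of the 4 days. The difference in the hairpin effect between day 6 and day 0, and between day 9 and day 0, was not past the threshold for any of the 9 either, where 0.0425% and 0.0496% of genes passed. The fit had 4 residual degrees of freedom, and each day had a single scrambled library, whose spread was taken from the hairpin pairs.

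In the discovery libraries the 9 genes spread most in Slc38a5. It stood at 327 TPM in MCV6 and 442 TPM in MCV8, 11.5 TPM in miPS, 1.43 and 1.66 TPM in v6.5, 1.12 and 1.17 TPM in E14 and 0.742 TPM in MEF. These levels rested on 3599, 4777, 120, 8.41, 13.8, 15, 19.95 and 0.439 expected reads. The lower of the partially reprogrammed lines was 28.6-fold above the highest other library, miPS, and miPS was 6.92-fold above the highest mESC library in TPM. Counted as library-scaled reads (CPM), these gaps were 30.3-fold and 14.1-fold, and deposited TPM are above 0 even for genes with 0 reads. Because MEF had under 1 read, a floor of 3 reads was used for it, and the mean of MCV6 and MCV8 in library-scaled reads (CPM) was at least 1620-fold higher than MEF, and mESC at least 2.86-fold higher.

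Per the labels, miPS is a fibroblast-derived line like MCV6 and MCV8, and its Pou5f1, Nanog and fibroblast marker levels were near those of mESC. On the TMM-scaled log2 scale of edgeR, Slc38a5 differed between mESC and the partially reprogrammed lines by -9.13 ± 0.26 and between miPS and mESC by 3.93 ± 0.26. With hairpins in E14 cells on day 0 it stood at 0.340 to 0.425 FPKM, so both tables put it low in E14 cells.

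Slc7a3 stood at 385 TPM in MCV6 and 48.5 TPM in MCV8, a 7.93-fold gap between the partially reprogrammed lines. It stood at 105 and 87.3 TPM in v6.5, 87.3 and 97.1 TPM in E14, 123 TPM in miPS and 5.53 TPM in MEF. The mESC libraries thus lay between the 2 partially reprogrammed lines, and MEF lay below all others. Slc7a11 also differed between the partially reprogrammed lines, with 24.4 TPM in MCV6 and 6.40 TPM in MCV8, and stood at 2.26 and 6.04 TPM in v6.5, 1.90 and 2.29 TPM in E14, 4.71 TPM in miPS and 3.42 TPM in MEF. The authors' deposited bounds for Slc7a11 overlapped between MCV8 (5.08 to 7.77 TPM) and the second v6.5 library (5.01 to 7.11 TPM).

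Slc1a5 was low in MEF, at 12.4 TPM, and stood at 136 and 137 TPM in MCV6 and MCV8, 92.0 TPM in miPS, 85.6 and 62.1 TPM in v6.5 and 63.2 and 54.8 TPM in E14. Both partially reprogrammed lines lay above miPS and mESC, and these above the 1 MEF library. The share of all genes in this order was not counted. Slc1a4, its paralog, was lowest in the lines where Slc1a5 was highest, with 11.5 and 12.1 TPM in MCV6 and MCV8, 17.8 TPM in miPS, 24.2 TPM in MEF, 23.4 and 18.1 TPM in v6.5 and 46.9 and 42.2 TPM in E14. The E14 mean was 2.15-fold (Slc1a4), 2.11-fold (Slc38a2), 1.41-fold (Asns) and 1.34-fold (Slc3a2) of the v6.5 mean. For Slc7a11, Slc38a5 and Slc1a5 it was 0.506-fold, 0.744-fold and 0.799-fold, and for Slc7a5 and Slc7a3 1.03-fold and 0.961-fold. The lines also differ in strain and depth, with 17008367 and 23662593 expected reads in E14 and 7815744 and 12389911 in v6.5.

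Slc38a2 stood at 125 and 110 TPM in MCV6 and MCV8, 138 TPM in miPS, 81.2 TPM in MEF, 114 and 172 TPM in v6.5 and 288 and 316 TPM in E14. Slc7a5 stayed within 124 to 217 TPM in the 8 libraries and Slc3a2 within 168 to 293 TPM. These 2 genes of 1 exchanger had the narrowest ranges of the 9 as highest over lowest library, 1.74 and 1.75, where the other 7 had 3.7 or more. Slc3a2 over Slc7a5 in TPM was 1.08 and 0.818 in MCV6 and MCV8 and 1.23 to 1.88 in the other 6 libraries.

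Asns stood at 105 and 130 TPM in MCV6 and MCV8, 133 TPM in MEF, 356 TPM in miPS, 303 and 226 TPM in v6.5 and 358 and 387 TPM in E14. The v6.5 values rested on 2035 and 4506 expected reads, in libraries of 7815744 and 12389911. Scaled to library size the reads were thus lower in the first v6.5 library, whereas its TPM was higher. In TPM the partially reprogrammed lines and MEF lay below every pluripotent library, an order whose share over all genes was not counted. The deposited bounds of MCV8 (116.7 to 143.6 TPM) overlapped with those of MCV6 (92.6 to 117.1 TPM) and of MEF (119.5 to 146.4 TPM). Those of MCV6 and MEF did not overlap. The mean of the 4 mESC libraries, 318 ± 71.0 TPM (SD, n = 4), was 2.71-fold that of MCV6 and MCV8 and 2.4-fold that of MEF. Atf4 RNA did not follow this order, and it does not measure ATF4 protein. Its level was 248 and 321 TPM in MCV6 and MCV8, 312 TPM in MEF, 204 TPM in miPS and 232 to 315 TPM in mESC.

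**Figure D3:**
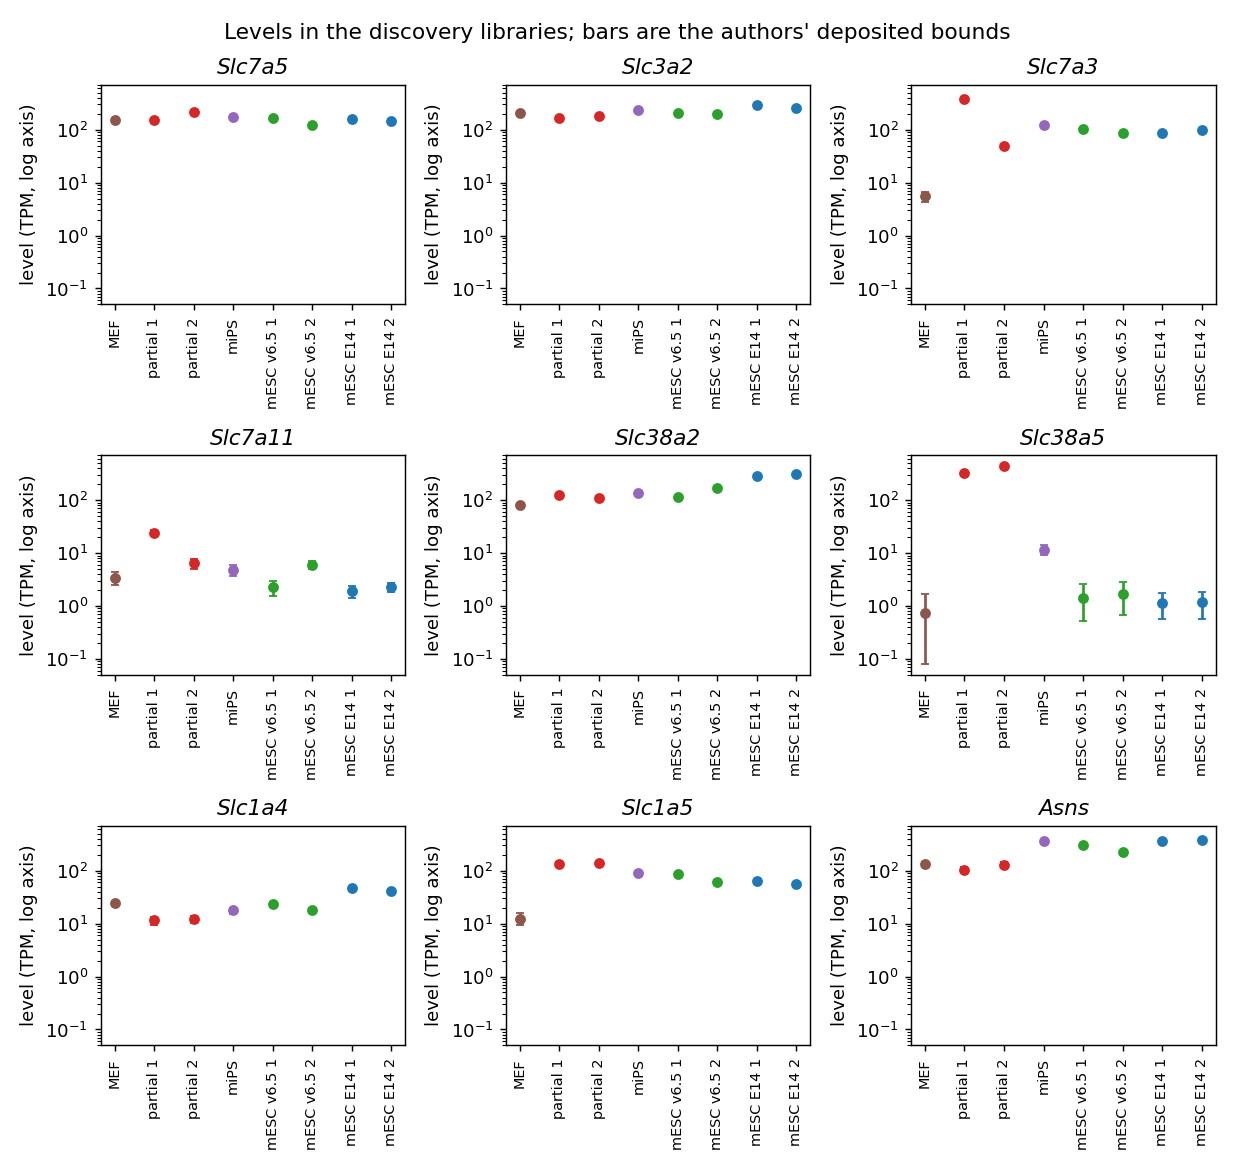
Level in TPM on a log axis (vertical) in each of the 8 discovery libraries (horizontal) for each of the 9 genes; bars are the bounds deposited by the authors, whose interval level is not stated, and "partial 1" and "partial 2" are MCV6 and MCV8. Slc38a5 is highest in MCV6 and MCV8, at 327 and 442 TPM, and Asns is lowest there and in MEF.

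Again for orientation, the discovery counts of the 9 genes past an adjusted p of 0.05 in edgeR's quasi-likelihood test, over 16773 genes, were these. In mESC against MEF, Slc1a5, Slc38a2 and Slc38a5 were higher, against 13.2% of genes (28.6% in either direction). For Slc38a5 this rested on 0.439 expected reads in MEF and 8.41 to 19.95 in the mESC libraries, at least 2.86-fold at the floor of 3 reads. Slc7a3, whose mESC mean in TPM was 17-fold its MEF level, was not among the genes that passed in this fit. With upper quartile scaling 4 passed, and 5 with DESeq2 or with no filter on low counts. Over all genes these alternatives gave 4768 to 6184 calls, against 4803 as reported. In mESC against MCV6 and MCV8, Asns and Slc1a4 were higher and Slc1a5, Slc38a5 and Slc7a11 lower, against 29.7% of genes in either direction. Without MCV6 or without the second E14 library only Slc38a5 of the 9 passed, without the first E14 library Asns and Slc38a5 did, and without MCV8 Asns, Slc38a5, Slc7a11 and Slc7a3 did. In MCV6 and MCV8 against MEF, Slc1a5 and Slc38a5 were higher, against 4.95% of genes (8.87% passed downward, 13.8% in either direction). Slc7a3 passed as well under DESeq2 or with no filter, and without either v6.5 library 4 passed, Slc7a3 upward and Slc1a4 downward in addition. In miPS against mESC, Slc38a5 was higher, against 0.0298% of genes, and the call was lost without MCV6, without MCV8 or without either E14 library. In E14 against v6.5 none of the 9 passed in edgeR or DESeq2, where 0.489% of genes passed in edgeR. In that comparison 3 of the 9 had an unadjusted p under 0.05, and without the second v6.5 library Slc38a2 passed upward and Slc1a5 downward.

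Genes of the amino acid response outside the 9 were tested as 8 lists. The ATF4 list holds Atf4 and 22 of its known or reported targets, and during differentiation more of its genes fell than rose on days 3 and 6. On day 3, 5 of 22 tested genes fell and 0 rose, with a median difference of -0.48 against 0.01 over all genes. On day 6, 8 fell and 1 rose (median -0.70 against 0.07), and on day 9, 2 fell and 3 rose (median -0.36 against 0.10). Over all genes 2.78%, 3.71% and 6.22% fell on days 3, 6 and 9, and 3.26%, 4.97% and 10.3% rose. Nupr1, a stress-induced chromatin protein, fell by 2.46 ± 0.61 (SE, limma adjusted p = 0.0465) on day 3 and by 2.41 ± 0.61 (limma adjusted p = 0.0418) on day 6. Chac1, which degrades glutathione, fell by 1.70 ± 0.34 on day 6 (limma adjusted p = 0.022).

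Vegfa, the endothelial growth factor, fell by 1.43 ± 0.33 on day 3 (limma adjusted p = 0.0367) and was higher by 1.52 ± 0.33 on day 9 (limma adjusted p = 0.0244), and Ddit4, an inhibitor of mTORC1, rose by 1.29 ± 0.23 on day 6 (limma adjusted p = 0.014). Atf4 differed by -0.49 ± 0.16 on day 3, -0.56 ± 0.16 on day 6 and -0.18 ± 0.16 on day 9, none past the threshold (limma adjusted p = 0.103, 0.0588 and 0.418). The ATF4 list had 7, 11 and 7 calls on days 3, 6 and 9 with the culture as a block, against 9.64%, 15.6% and 29.9% of all genes, and 14, 17 and 16 without the hairpin B culture, against 35.9%, 52.9% and 65.1%. Its day 3 count went to 0 without any 1 of the scrambled libraries of days 0, 3 and 6, the hairpin A libraries of days 0 and 3 or the hairpin B library of day 3. Its day 6 count went to 0 without the day 6 library of the scrambled culture or hairpin A, and its day 9 count to 0 without the scrambled library of day 9.

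Serine and one-carbon enzymes and cytosolic tRNA synthetases moved downward where they passed. Psat1, of serine synthesis, fell by 0.78 ± 0.15 on day 3 (limma adjusted p = 0.0179) and by 1.17 ± 0.15 on day 6 (limma adjusted p = 0.0038). Mthfd2, of mitochondrial one-carbon metabolism, fell by 0.74 ± 0.15 on day 3 (limma adjusted p = 0.0247) and by 1.19 ± 0.15 on day 6 (limma adjusted p = 0.0038). Of the 16 genes of the serine and one-carbon list 2, 3 and 4 fell on days 3, 6 and 9 and 0 rose. Over all genes 2.78%, 3.71% and 6.22% fell. With hairpin B left out 8, 14 and 12 passed, against 35.9%, 52.9% and 65.1% of all genes, and with the culture as a block 2, 8 and 7. The day 3 and day 9 counts went to 0 without the scrambled library of day 0, the hairpin A library of day 0 or the scrambled library of the day itself, and the day 3 count also without the hairpin A library of day 3.

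Of 20 tRNA synthetases 0, 6 and 7 fell on days 3, 6 and 9 and 0 rose, where 2.78%, 3.71% and 6.22% of all genes fell. Cars and Mars, which charge cysteine and methionine tRNA, fell by 1.16 ± 0.21 (limma adjusted p = 0.0155) and 0.85 ± 0.17 (limma adjusted p = 0.0211) on day 6. With the culture as a block 3, 8 and 8 synthetases passed, against 9.64%, 15.6% and 29.9% of all genes, and without hairpin B 13, 14 and 12 did, against 35.9%, 52.9% and 65.1%. The day 9 count went to 0 without the scrambled or hairpin A library of day 0 or day 9, and the day 6 count to 1 without the scrambled or hairpin A library of day 0 or day 6.

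Among 23 other amino acid transporters tested, 2 rose and 2 fell on days 3 and 6, and 3 fell on day 9. Over all genes 6.04%, 8.68% and 16.6% passed in either direction on days 3, 6 and 9. Without hairpin B 9, 10 and 17 passed, against 35.9%, 52.9% and 65.1% of all genes, and the day 3 and day 9 counts went to 0 without the scrambled library of day 0 or of the day itself. Slc7a1, the widely expressed cationic carrier, fell by 1.08 ± 0.18 on day 3 (limma adjusted p = 0.00998), 1.62 ± 0.18 on day 6 (limma adjusted p = 0.0021) and 0.65 ± 0.18 on day 9 (limma adjusted p = 0.0399). Slc7a1 and Slc7a3, both cationic carriers, thus had different low points, day 6 and day 9. Slc7a8, the LAT2 light chain that also pairs with Slc3a2, rose by 1.09 ± 0.20 on day 3 (limma adjusted p = 0.0161) and 1.52 ± 0.20 on day 6 (limma adjusted p = 0.0044). It stood at 0.419 to 0.896 FPKM on day 0 and 2.51 to 4.70 FPKM on day 6.

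Glutathione and Nrf2 target genes, the pathway that Slc7a11 supplies with cystine, had 0 calls on days 3 and 6 and 3 falls on day 9 among 13 genes in the limma fit, with 1 and 4 genes at an unadjusted p under 0.05 on days 3 and 6. Gclm, the modifier subunit of glutamate-cysteine ligase, fell by 1.49 ± 0.42 (limma adjusted p = 0.0441), and Txnrd1, thioredoxin reductase, by 1.12 ± 0.25 (limma adjusted p = 0.027) on day 9. Without hairpin B 3, 13 and 11 of the 13 passed on days 3, 6 and 9, against 35.9%, 52.9% and 65.1% of all genes. The day 9 count was 9 without the hairpin B library of that day, and 0 without the scrambled or hairpin A library of day 0 or day 9 or the hairpin B library of day 0. In the lists of eIF2 kinases and mTORC1 sensing and of ER chaperones 1 to 3 genes passed on each day, and without hairpin B on days 3, 6 and 9 these were 5, 6 and 12 of the former and 6, 7 and 5 of the latter. With 1 library left out the eIF2 list had 0 to 9 calls on day 9 (0 without the scrambled library of day 0 or day 9 or the hairpin A library of day 0, 9 without the hairpin B library of day 9). The ER list had 0 to 5 on day 6 (0 without the scrambled library of day 0 or day 6, 5 without the hairpin B library of day 9) and 0 to 5 on day 9. On days 3, 6 and 9 the list of glutamine and aspartate metabolism, of 13 genes, had 0, 1 and 2 calls. Without hairpin B it had 1, 8 and 9, against 35.9%, 52.9% and 65.1% of all genes. With all 12 libraries 6.04%, 8.68% and 16.6% of all genes passed on these days.

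In the discovery libraries the genes of the ATF4 list that passed were lower in MCV6 and MCV8 than in mESC and in MEF, and the rest, Atf4 and Nupr1 among them in the comparison with mESC, did not pass. In mESC against these lines 11 of 23 genes were higher and 0 lower (median 0.86 against 0.05 over all genes, of which 16.1% were higher and 13.6% lower). In the lines against MEF 0 were higher and 9 lower (median -1.82 against 0.15 over all genes, of which 4.95% were higher and 8.87% lower). Atf3 stood at 3.10 and 2.91 TPM in MCV6 and MCV8 and at 11.1 to 35.3 TPM in mESC (log2 difference 2.92 ± 0.39, edgeR adjusted p = 0.0047). Jdp2 stood at 3.93 and 3.09 TPM in them and 63.3 TPM in MEF (-4.60 ± 0.49, edgeR adjusted p = 0.0038). Fgf21 passed as well in mESC against these lines, which had 0 reads of it, and at 3 reads as the floor mESC were at least 1.81-fold higher. The 2 comparisons share the libraries of the partially reprogrammed lines.

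The count of 11 went to 2 without MCV6 or without the first E14 library and to 3 without MCV8 or without the second E14 library. The count of 9 went to 5 without either E14 library and to 14 without either v6.5 library. Against MEF, mESC had 7 of the 23 genes lower and 0 higher, among them Aldh1l2 (-3.68 ± 0.36, edgeR adjusted p = 0.0023) and Atf5 (-3.63 ± 0.47, edgeR adjusted p = 0.0047), and this count was 4 without either E14 library and 11 without the first v6.5 library. Asns, whose mESC mean was 2.4-fold its MEF level, did not pass in this comparison. Some other genes of the ATF4 list were also higher in mESC without passing, such as Gpt2 (49.55 to 94.54 TPM in mESC, 24.52 TPM in MEF). The part of ATF4 in the Asns level was not tested.

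Of 26 other transporters 10 were higher in mESC than in the partially reprogrammed lines and 7 lower. Over all genes 16.1% were higher and 13.6% lower. Slc38a4, another system A carrier, stood at 0.557 and 0.485 TPM in MCV6 and MCV8 and at 49.7 to 143 TPM in mESC (9.25 ± 0.42, edgeR adjusted p = 0.00072). Slc38a6, a further family member, stood at 147 and 487 TPM in MCV6 and MCV8 and 25.2 to 68.7 TPM in mESC (-2.97 ± 0.54, edgeR adjusted p = 0.0113). The Slc38 genes Slc38a5 and Slc38a6 were thus higher and Slc38a3 and Slc38a4 lower in the partially reprogrammed lines. Slc38a3 had 0 reads in both lines, and mESC were at least 20.6-fold higher. The count of 17 was 10 to 12 when MCV6, MCV8 or an E14 library was left out.

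In the list of serine, glycine and one-carbon genes 3 of 16 were higher in mESC than in MCV6 and MCV8 and 0 lower, against 16.1% and 13.6% of all genes. Against MEF 7 of the 16 were higher in mESC and 0 lower, against 13.2% and 15.4% of all genes. Tdh, threonine dehydrogenase, stood at 227 to 503 TPM in mESC, 523 TPM in miPS, 54.2 and 74.2 TPM in MCV6 and MCV8 and 0.601 TPM in MEF. It had 0 reads in MEF, so that mESC were at least 1210-fold and MCV6 and MCV8 at least 202-fold higher than the floor of 3 reads. Gldc, the glycine decarboxylase, stood at 85.9 to 199.8 TPM in mESC and 3.16 and 0.444 TPM in MCV6 and MCV8 (6.27 ± 0.98, edgeR adjusted p = 0.0074). The count of 7 against MEF was 5 to 10 with 1 library left out. In the list of glutamine and aspartate metabolism 7 of 13 were higher in mESC than in MEF and 0 lower, and this count was 2 without either E14 library and 10 or 11 without a v6.5 library.

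**Figure D4:**
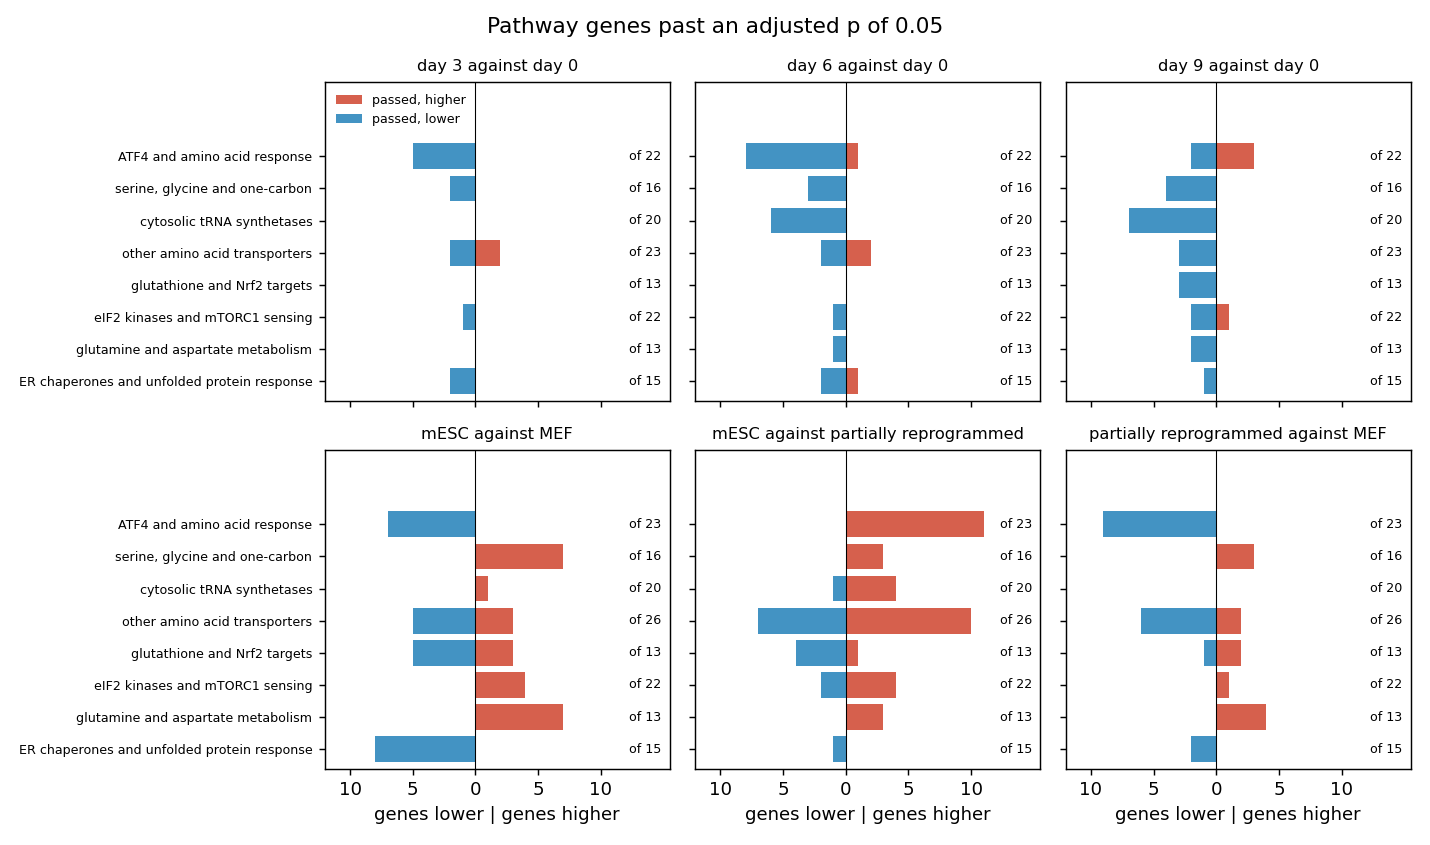
Number of genes past an adjusted p of 0.05 in each of 8 pathway lists (vertical axis), with lower genes drawn to the left in blue and higher genes to the right in red (horizontal axis), for 6 comparisons; the number at the right is the number of genes tested. The ATF4 list has 8 lower genes on day 6, and in mESC against the partially reprogrammed lines 11 higher genes of 23.

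None of the genes in the 8 lists passed the limma test of depletion on any day. On day 6 the 13 glutathione and Nrf2 target genes had a median hairpin difference of 0.69, with 13 of 13 above 0, where 46.1% of all genes were. On day 0 the median was already 0.31, with 12 of 13 above 0 against 50.8% of all genes, and on days 3 and 9 it was 0.10 and 0.66, with 9 and 12 above 0. Their summed level on that day was 650 FPKM in the scrambled culture, 792 FPKM with hairpin A and 1312 FPKM with hairpin B, whose library stood apart. This list was picked out of the 8 with its values known. On day 6 the tRNA synthetases other than Cars, Qars and Yars were also above 0, and most ER chaperone genes were below 0. Genes of a list share the same libraries and a single scrambled library a day, so their signs are not independent.

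The genes whose levels ran most like those of the 9 over the 12 time course libraries were found by Pearson's r of log2(FPKM + 1) among 14108 genes, and these values are a description, since libraries share cultures and days. Slc7a5 was closest to Gdf3 (0.99), Fbxo42 (0.98) and Mdn1 (0.98), and Slc7a3 to Enc1 (0.98), Zfp341 (0.98) and Mcm5 (0.98). Gdf3 is a TGF-beta family ligand of pluripotent cells, and Mcm5 a subunit of the replicative helicase. Slc1a5 was closest to Rpl10l, Kcnk5 and Pla2g5 (0.98 each), and Slc3a2 to Dusp1, Zfp532 and Patl1 (0.97 each). Asns was closest to Aldh6a1 (0.97), of valine catabolism, Slc38a4 (0.94) and Sun1 (0.94).

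The likeness of Slc38a4 and Asns was computed over the time course libraries only. Slc38a4 stood at 101, 36.7, 50.4 and 73.3 FPKM on days 0, 3, 6 and 9 in the scrambled culture, with the low point on day 3 as for Asns. In the discovery libraries the 2 genes differed. Slc38a4 stood at 0.557 and 0.485 TPM in MCV6 and MCV8 and 32.9 TPM in MEF, where Asns stood at 105, 130 and 133 TPM. Slc7a11 was closest to Tuba1a (0.97), Eme1 (0.97) and Rab13 (0.96), Slc38a2 to Tada2a (0.91), Fgf17 (0.90) and Fancc (0.89), Slc1a4 to Evc (0.94), Nceh1 (0.93) and Lrch1 (0.93), and Slc38a5, at 7 to 28 reads a library, to Txndc17 (0.96) and Pdzk1ip1 (0.94).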

How the data were processed

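Per the submitters' processing notes, the authors' FPKM of the time course rest on mm9 and on Cufflinks 1.3.0, TopHat 1.14 and Bowtie 0.12.7, whose roles are not stated. The discovery table holds expected counts and TPM deposited by the authors, with bounds, and the same notes name RSEM, TopHat 1.3 and mm9 for it. Strand and annotation are not stated there. Each table was normalized on its own, so tests were made within a table only.

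The members and gene lists were chosen with earlier results of these data known. Named genes are the 9 members, Atf4, the label checks, for each list and comparison up to 2 of the largest rises and falls past the threshold, and the 3 genes most like each member. Nanog, the fibroblast markers under 1 read and the motifs were added with their values known, and the level of the targeted RNA and some other items are not reported here.

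FPKM were analysed with limma 3.58.1 in R 4.3.3 on log2(FPKM + 1), for the 14108 genes that reached 1 FPKM in 2 or more libraries, with day and depletion (7 residual degrees of freedom) or 8 groups (4). Expected counts were rounded and analysed with edgeR 4.0.16 (quasi-likelihood, TMM, at least 1 CPM in at least 2 libraries, 16773 genes, 5 groups, 3 residual degrees of freedom, so that MEF and miPS, 1 library each, were assumed to vary like the pairs). P-values are two-sided and adjusted by Benjamini-Hochberg across all genes of the fit, and 0.05 was the limit. Both fits were tested on simulated data. DESeq2 1.42.0 was an alternative, with others on filters, pseudocount, scaling and left-out libraries. The hairpin ratio columns deposited by the authors were not used.

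Libraries of 1 culture come from the same transduced cells, so the culture pairs them; their deviations from the day means correlated at -0.09 to 0.64.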

Additional observations from a re-analysis of the deposited data

How the results depend on the processing

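Of 1746 recomputed log2 differences of the 9 genes, 1666 moved by less than their spread, 80 by more, and 0 called differences changed sign. The count of the 9 past the threshold was 1 on day 3, 3 on day 6 and 4 on day 9. With the culture as a replicate block it was 2, 5 and 5, and without the hairpin B culture 3, 9 and 8. Without the hairpin B libraries of days 6 and 9, an alternative chosen after seeing the data, it was 5, 9 and 8. With no filter on low FPKM the day 9 count was 2. Leaving out 1 library gave 0 to 2 on day 3, 0 to 6 on day 6 and 0 to 7 on day 9. In mESC against MEF 5 passed with DESeq2 or with no filter on low counts, and 3 as reported. With 1 library left out, 2 to 4 passed in mESC against MEF, 1 to 7 in mESC against MCV6 and MCV8, 2 to 4 in these lines against MEF, 0 to 1 in miPS against mESC and 0 to 2 in E14 against v6.5. The replicate numbers of E14 and v6.5 are shared as numbers only (correlation of deviations 0.40), and with them as a replicate block 0 of the 9 passed in E14 against v6.5. The count of the 9 in the hairpin comparisons was 0 in every fit run, the culture block included.

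Over all genes, 852, 1224 and 2337 passed on days 3, 6 and 9 as reported, 1360, 2204 and 4218 with the culture block, and 4999, 7352 and 9058 without the hairpin B culture. The 3 to 7 genes that passed in each hairpin comparison became 0 without loci under 300 bp and 9 to 59 with no filter on low FPKM. In miPS against mESC 5 genes passed in edgeR, 100% of them higher, against 175 in DESeq2, 66.29% of them higher, and 222 with no filter, 84.23% of them higher. In E14 against v6.5 the counts were 82 in edgeR, 1138 in DESeq2, 1417 with no filter and 1372 with the number block. DESeq2 shifted the median of all genes by -0.11 in MCV6 and MCV8 against MEF. With no filter the median in mESC against MEF moved by 0.16, where more genes entered it. The cause of the other changes was not tested. Depth limits Slc38a5 in the time course and in mESC and MEF most.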
